A study of Homo sapiens with 4 samples.

Results

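Mitochondrial ribosomal protein genes were chosen by symbol, as MRPL or MRPS followed by a number, with or without a letter, among the protein-coding genes of GENCODE (release 44). There were 78 such genes among 20033 protein-coding genes, and they lay on 21 chromosomes. ATAC-seq was used to ask how open the chromatin at their starts was in pancreatic progenitors with or without I-BET151, a small molecule that keeps the BET bromodomain proteins from binding acetylated histones. The progenitors were derived from MEL1, an established human embryonic stem cell line that the methods name MEL1 INS GFP/W, with a GFP reporter in 1 allele of the insulin gene, so that all libraries share 1 line and its reporter. All libraries came from cells in EF6 medium (DMEM with B27, EGF, bFGF and the compound 616452), which the controls received with DMSO for 7 days and the treated cells with 1 μM I-BET151 for the same 7 days. There were 2 libraries of 50000 cells per condition, and the labels do not say whether they came from separate cultures, so that the tests measure the spread between these libraries only.

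Mitochondria make a small set of membrane proteins of the respiratory chain on ribosomes of their own. The RNA of these ribosomes is encoded in mitochondrial DNA, whereas every protein of their large subunit (MRPL genes, with a few MRPS genes) and small subunit (MRPS genes) is encoded in the nucleus, made in the cytosol and imported. Many of these proteins have a counterpart in bacterial ribosomes, and the others were added in the mitochondrial lineage. The promoters of such nuclear genes often carry sites for NRF1, for ETS factors such as GABPA, and for YY1. By the uniform names of the proteins, 51 members belong to the large subunit and 26 to the small subunit, and 46 have a bacterial counterpart while 31 are specific to mitochondria. The remaining gene, MRPS36, keeps its symbol although its product is a component of the α-ketoglutarate dehydrogenase complex.

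Promoter sequences are given for 6 members on which the results turn. MRPL28, MRPL38 and MRPL52 rose in rank, MRPS18A was called with I-BET151 in both replicates and with DMSO in neither, and MRPS9 and MRPS30 stood near the top of all 4 lists. Each run is the strand of the gene from 170 bases before to 30 bases after its RefSeq start (GRCh38.p14), written 5′ to 3′. Capitals mark matches, on either strand, to the letters CCGGAAG (ETS), to AANATGGCG (YY1, where N is any base), or to GCGCA and GCGC with any 1 base between them (NRF1). In GRCh38.p14 the runs lie at chr16:370509-370708 on the minus strand (MRPL28), chr17:75904855-75905054 on the minus strand (MRPL38), chr14:22829717-22829916 on the plus strand (MRPL52), chr6:43687762-43687961 on the minus strand (MRPS18A), chr2:105037899-105038098 on the plus strand (MRPS9) and chr5:44808777-44808976 on the plus strand (MRPS30).
MRPL28: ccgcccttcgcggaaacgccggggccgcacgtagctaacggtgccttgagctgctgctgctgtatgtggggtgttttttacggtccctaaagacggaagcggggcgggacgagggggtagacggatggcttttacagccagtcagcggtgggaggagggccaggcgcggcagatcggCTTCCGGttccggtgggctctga
MRPL38: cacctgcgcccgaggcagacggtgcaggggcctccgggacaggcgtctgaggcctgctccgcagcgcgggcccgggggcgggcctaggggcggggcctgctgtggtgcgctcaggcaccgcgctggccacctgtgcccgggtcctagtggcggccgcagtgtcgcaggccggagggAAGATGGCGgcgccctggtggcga
MRPL52: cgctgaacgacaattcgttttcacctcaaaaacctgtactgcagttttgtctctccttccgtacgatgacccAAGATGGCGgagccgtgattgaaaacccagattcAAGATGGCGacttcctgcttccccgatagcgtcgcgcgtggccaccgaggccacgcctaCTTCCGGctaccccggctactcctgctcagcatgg
MRPS18A: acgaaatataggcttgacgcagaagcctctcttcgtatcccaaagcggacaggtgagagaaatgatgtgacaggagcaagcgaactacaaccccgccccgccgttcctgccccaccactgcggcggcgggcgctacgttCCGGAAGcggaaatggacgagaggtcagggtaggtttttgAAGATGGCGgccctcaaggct
MRPS9: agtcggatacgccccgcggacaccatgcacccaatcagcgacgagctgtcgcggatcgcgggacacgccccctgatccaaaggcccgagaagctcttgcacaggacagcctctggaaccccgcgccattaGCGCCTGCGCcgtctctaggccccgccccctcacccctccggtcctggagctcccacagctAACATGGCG
MRPS30: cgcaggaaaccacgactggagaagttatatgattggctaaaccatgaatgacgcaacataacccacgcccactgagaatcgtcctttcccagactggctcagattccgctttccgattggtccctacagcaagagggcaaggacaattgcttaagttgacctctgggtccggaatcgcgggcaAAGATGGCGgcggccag

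MRPL52 held 2 YY1 matches and 1 ETS match in this window, and in MRPS9 the YY1 match ended at the last base printed. MRPL38 held an ETS match outside its printed run. A window of 300 bases, from 250 before to 50 after the start, was available for 69 of the 78 members. ETS letters were found in 29 of these 69 promoters (42.0%), against 14.4% of 15345 promoters of protein-coding genes and 33.3% of the promoters of cytosolic ribosomal protein genes. YY1 letters were found in 18 (26.1%), against 4.91% of all promoters and 12.7% of the cytosolic set. NRF1 letters were found in 8 (11.6%), against 8.60% of all promoters. At least 1 of these 3 motifs was present in 47 members (68.1%) and in 24.5% of all promoters. The share of members with GC-box letters (GGGCGG, SP1) was 60.9%, beside 59.2% of all promoters, and the letters TATAAA were present in 2.90% of members and 9.63% of all promoters. These matches describe the letters in the window and were read on both strands, and ETS and YY1 matches may share bases with other motifs.

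The 4 peak lists held 38295 to 111324 peaks. The depth estimated from their background was 36.6 to 38.7 M reads with DMSO and 12.5 to 16.0 M reads with I-BET151, and the median fold enrichment of a list was 3.88 and 4.08 with DMSO and 5.56 and 6.03 with I-BET151. Depth and list level thus moved with the condition, and their part in the results below was not tested. For this reason levels are given as percentiles of fold enrichment within a list, where 100 is the most enriched region and 0 means that the region was not called. Of 10 pancreatic progenitor markers, 7 to 9 had a region called within 3 kb of the start in each library (PTF1A in none), POU5F1 and NANOG of pluripotent cells had none in any library, of 4 endocrine markers 1 and 0 had one with DMSO and 2 and 2 with I-BET151 (INS in none), and of 3 mesenchyme or feeder markers 2 or 3 had one. ATAC-seq of bulk cells does not tell a region open in more cells from one that is more open in each cell.

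Most mitochondrial ribosomal protein genes had a called region near the start in every library. A region called in at least 1 list lay within 3 kb of the start of 76 members (97.4%), against 78.4% of all protein-coding genes. The region nearest to the start, called the start region here, covered the start itself in 71 members, and its summit lay within 250 bp of the start in 65. Start regions were 269 to 1943 bp long. MRPL45, whose protein holds the ribosome at the inner membrane, and MRPS22, a small-subunit protein, had no region within 3 kb. For MRPS22 the start of the gene record lies 338214 bp from the start of its canonical transcript, and the same distance is 27890 bp for MRPL11, 16126 bp for MRPL37 and 13263 bp for MRPL34, so that values of these genes describe the record's start.

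More members were called in each I-BET151 library than in either DMSO library. With DMSO, 70 members were called in replicate 1 and 67 in replicate 2. With I-BET151, 74 were called in replicate 1 and 75 in replicate 2. The mean went from 68.5 ± 2.12 members (SD over 2 libraries) to 74.5 ± 0.71, with p = 0.33 in a two-sided exact permutation test, which is the lowest value that 4 libraries in 2 groups can reach. Over all protein-coding genes the shares called were 65.0% and 57.4% with DMSO and 68.9% and 73.6% with I-BET151, which is the same direction. Among the 79 cytosolic ribosomal protein genes, the family most alike in function, 75 and 71 were called with DMSO and 76 and 77 with I-BET151.

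The start region was called in all 4 lists for 64 members (82.1%), which share 63 distinct regions because MRPS11 and MRPL46 start from 1 region. The same held for 87.3% of cytosolic ribosomal protein genes and 51.8% of all protein-coding genes. Of the other members, 5 were called with I-BET151 alone in both replicates, 5 in both I-BET151 lists and 1 DMSO list, 1 in I-BET151 replicate 2 only and 1 in DMSO replicate 1 only. No member start region was held by both DMSO lists alone.

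**Figure D1:**
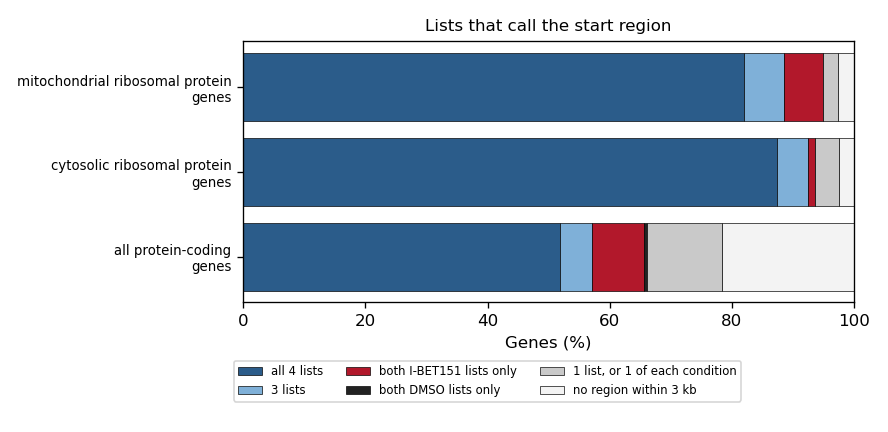
Share of genes (x axis, %) by the lists that call the start region, for mitochondrial ribosomal protein genes (n = 78), cytosolic ribosomal protein genes (n = 79) and all protein-coding genes (n = 20033). Regions called in all 4 lists make up 82.1% of the first bar and 51.8% of the last.

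The 5 start regions called in both I-BET151 lists and neither DMSO list lay between percentiles 26.3 and 84.1 of the I-BET151 lists. A region is named gained here when both I-BET151 lists hold it and neither DMSO list does, and lost in the reverse case. Of the 89 regions within 3 kb of a member start, 6 were gained and 0 were lost, whereas 12.1% of the 17497 regions within 3 kb of any protein-coding gene start were gained and 1.35% were lost. Counted by start region, 5 members were gained, beside 10.7% of the protein-coding genes with a region, and 0 were lost, beside 0.783%. The share among members was thus not above the background with all peaks and all 4 libraries. These counts carry no test across regions, and they moved with single libraries: without DMSO replicate 1 there were 10 gained regions, and without DMSO replicate 2 there were 5 lost ones. Among peaks with a −log10 p of at least 10, 11 were gained. For these settings the shares over all regions are not given, so that these counts cannot be set against a background.

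MRPS18A, which despite its symbol is a protein of the large subunit (mL66), had the strongest gained start region (chr6:43687597-43688169, hg38), with a summit at −145 bp from the start. Its fold enrichment was 8.77 in I-BET151 replicate 1 and 9.98 in replicate 2, at percentiles 81.6 and 84.1 of these lists. MRPL21, a large-subunit protein with a bacterial counterpart, had fold enrichments of 6.64 and 9.06 in the same order, and its region also covers the start of IGHMBP2, 28 bp away on the other strand. The pileups at these summits, the numbers of reads stacked there, were 14 to 33 reads, so that counting error is large.

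MRPL22, a protein that lines the exit tunnel of the nascent chain, had a gained start region with fold enrichments of 7.43 and 6.70. Its local background was 4.92 and 9.60 reads, the highest among the 5. A second region of MRPL22, with its summit at −2820 bp from the start, was called in all 4 lists, at fold enrichments of 6.82 and 5.88 with DMSO and 9.59 and 8.77 with I-BET151. MRPL12, the protein of the flexible stalk that recruits translation factors, had fold enrichments of 4.62 and 6.18. The start region of MRPL35 (5.79 and 5.18) lay in intron 1, 2695 bp from the start, and is not a promoter region by position. The last gained region was a second one of MRPL34, with its summit at −2827 bp, at 4.58 and 6.12.

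MRPS10, a protein of the head of the small subunit, and MRPS31, a small-subunit protein specific to mitochondria, were called in all lists but that of DMSO replicate 2, the shortest list. The fold enrichment of MRPS10 was 4.66 in DMSO replicate 1 and 13.0 and 14.3 with I-BET151, and its percentile moved from 72.4 to 96.5 and 96.8. For MRPS31 the fold enrichment was 4.14 in DMSO replicate 1 and 11.5 and 14.3 with I-BET151. Both regions were thus high in the I-BET151 lists and missing from 1 DMSO list. MRPL43, which starts 148 bp from TWNK, the gene of the mitochondrial DNA helicase, was called in the same lists at lower fold enrichments of 2.77, 5.10 and 5.98.

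MRPL36 and MRPS34 were missing from the list of DMSO replicate 1 only. MRPS34, a small-subunit protein specific to mitochondria, had fold enrichments of 2.93 in DMSO replicate 2 and 5.84 and 7.95 with I-BET151. For MRPL36 the values were 2.89, 5.22 and 5.32, but this region lies where NDUFS6, a complex I subunit gene, starts on the other strand, and the start of the canonical MRPL36 transcript lies 1529 bp away. A second MRPL36 region, 1475 bp into the gene, was called in all 4 lists at 3.40 and 3.56 with DMSO and 7.36 and 7.18 with I-BET151. MRPL37 had a region with its summit at −1941 bp in I-BET151 replicate 2 alone (3.97) and MRPL23, a protein at the tunnel exit, had one at −2889 bp in DMSO replicate 1 alone (3.36). Neither of these 2 regions covers a start.

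**Figure D2:**
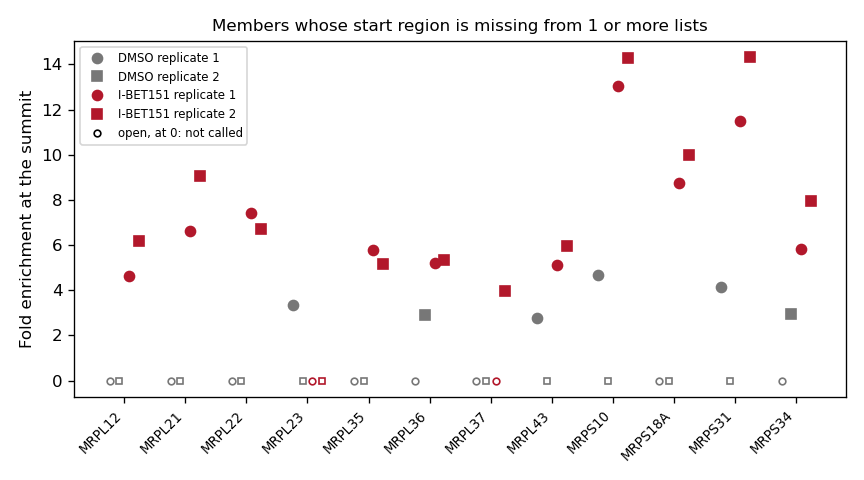
Fold enrichment at the summit (y axis) of the start region in each library for the 12 members that have a start region missing from 1 or more lists, with open symbols at 0 where it was not called. MRPS10 and MRPS31 reach 11.5 to 14.3 with I-BET151, the highest of these members.

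The level of member start regions within their lists lay above that of all protein-coding genes with a region in every library. The median percentile over the 76 members was 84.9 in DMSO replicate 1 and 76.2 in replicate 2, and 88.8 and 90.2 in the I-BET151 replicates. It was higher in both I-BET151 libraries, with means of 80.5 ± 6.12 and 89.5 ± 0.95 (SD, n = 2 each; exact permutation p = 0.33). The difference of 8.95 points was 4.58 without DMSO replicate 2 and, with the same number of peaks from each list, 1.18 (exact permutation p = 1.0). Regions not called count as 0 in this median, and the 5 start regions gained with I-BET151 do so in both DMSO lists. For the 63 start regions called in all 4 lists, percentiles were also taken among such shared regions only. Their medians were 64.5 and 76.8 with DMSO and 79.2 and 70.7 with I-BET151, which overlap (exact permutation p = 0.67). Genes with no region in any list, 4331 of the protein-coding genes, enter none of these medians. With regions not called at 0, the medians of the remaining 15702 protein-coding genes were 68.8 and 53.9 with DMSO and 76.9 and 76.9 with I-BET151. Those of the 77 cytosolic ribosomal protein genes with a region were 85.7, 77.2, 85.7 and 84.3 in the same order. Of the 71 other genes of mitochondrial translation and its regulation described below, 70 had a region. Their medians were 87.1, 80.1, 90.7 and 90.4, above the members in each library. The distance between the members and the cytosolic set was −0.88 and −1.04 percentile points with DMSO and 3.07 and 5.86 with I-BET151 (difference 5.43, exact permutation p = 0.33). The distance to the protein-coding genes with a region moved the other way, from 16.1 and 22.3 points with DMSO to 11.9 and 13.2 with I-BET151 (difference −6.61, exact permutation p = 0.33). Among shared regions only, this distance rose instead, from 4.14 and 9.74 points with DMSO to 13.0 and 13.8 with I-BET151 (exact permutation p = 0.33). Its direction thus depended on whether regions not called were counted. The distance to the cytosolic set among shared regions overlapped, at 0.40 and 5.13 with DMSO and 2.80 and 12.9 with I-BET151 (exact permutation p = 0.67).

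**Figure D3:**
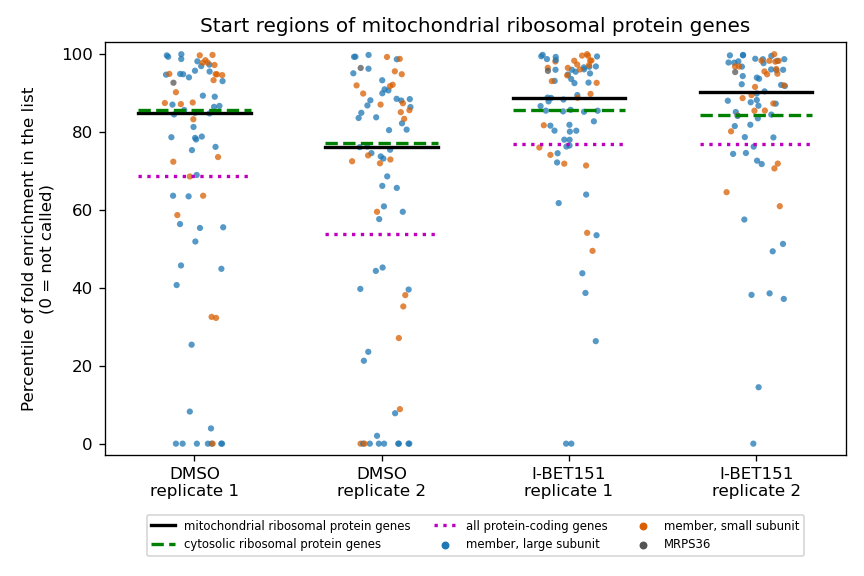
Percentile of fold enrichment (y axis, 0 where not called) of each member start region in the 4 libraries, 1 point per region, coloured by subunit. Bars mark the medians of 3 gene sets, each over its genes with a region. The median of the members (solid bar) is 84.9, 76.2, 88.8 and 90.2 from left to right.

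The members with the highest mean percentile were MRPS17, MRPL50, MRPS30, MRPL47 and MRPS9. MRPS17, a small-subunit protein with a bacterial counterpart, had fold enrichments of 11.7 and 10.8 with DMSO and 20.6 and 22.1 with I-BET151, and its percentile ranged from 98.8 to 99.98 over the 4 libraries. MRPS30, a large-subunit protein (mL65), had 13.7 and 14.6 with DMSO and 14.6 and 19.2 with I-BET151, on pileups of 89 to 289 reads. MRPS9, which reaches towards the transfer RNA in the small subunit, had 11.2 and 11.6 with DMSO and 14.4 and 15.7 with I-BET151. Folds of the conditions did not overlap in MRPS17 and MRPS9, as in 97.4% of all start regions, whereas in MRPS30 a DMSO and an I-BET151 library were level at 14.6. By percentile MRPS9 was at 99.7 and 99.3 with DMSO and at 98.3 in both I-BET151 libraries (rank shift −0.77, adjusted p = 0.213). MRPL50 starts 233 bp from ZNF189 and MRPL47 41 bp from NDUFB5 on the other strand, and the mean percentiles of these start regions were 99.5 and 99.1. The member nearest to the median was MRPL42, at percentiles of 78.8 and 80.5 with DMSO and 80.3 and 97.7 with I-BET151.

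Next, ranks were compared between the conditions for the regions called in all 4 lists. The rank shift is the difference, I-BET151 minus DMSO, of the ranks by fold enrichment turned into normal scores, so that a shift common to a whole list drops out. Limma was fitted on all 25627 shared regions with Benjamini-Hochberg adjustment over all of them. Of the 63 member start regions, 4 rose and 0 fell at an adjusted p of 0.05, beside 2.88% up and 0.963% down among the 8725 start regions of protein-coding genes and 3.41% up and 1.96% down over all regions. At an unadjusted p of 0.05, 12 were higher and 8 lower, beside 967 and 910 of the 8725 start regions. The median rank shift of the members was 0.14, with 37 above 0, and that of all start regions −0.06, with 46.6% above 0. Among the cytosolic ribosomal protein genes 1 of 69 rose and 1 fell, with a median of 0.01.

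MRPL28, MRPL38, MRPL10 and MRPL52, all of the large subunit, were the members that rose. The fold enrichment of MRPL28, which has a bacterial counterpart, was 3.67 and 3.29 with DMSO and 10.2 and 15.5 with I-BET151. Its percentile among shared regions went from 13.5 and 10.95 to 69.6 and 92.5, without overlap between the conditions, and the rank shift was 2.14 ± 0.41 (SE; limma adjusted p = 0.0132). The region lies at the RefSeq start, 378 bp inside the start of the gene record. The pileups were 35 and 31 reads with DMSO and 33 and 87 with I-BET151, over local backgrounds of 8.80, 8.71, 2.32 and 4.69 reads.

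MRPL38, a protein of the central protuberance that is specific to mitochondria, had fold enrichments of 3.83 and 3.36 with DMSO and 12.8 and 12.9 with I-BET151. Its percentiles among shared regions were 16.7 and 12.5 and then 88.2 and 78.7, a rank shift of 2.05 ± 0.38 (SE; limma adjusted p = 0.0121). The pileups were 31, 24, 45 and 75 reads over backgrounds of 7.36, 6.45, 2.60 and 4.88 reads. As in MRPL28, the background in the deeper DMSO libraries was higher than in the I-BET151 libraries.

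MRPL10 forms the base of the stalk to which MRPL12 binds. Its fold enrichment was 3.80 and 3.77 with DMSO and 13.2 and 13.8 with I-BET151, and the rank shift was 2.0 ± 0.38 (SE; limma adjusted p = 0.0132). The start of LRRC46 lies 93 bp away on the other strand, within the same region. MRPL52, a large-subunit protein specific to mitochondria, had 4.90 and 4.44 with DMSO and 12.3 and 15.6 with I-BET151, and a rank shift of 1.40 ± 0.38 (SE; limma adjusted p = 0.0445). SLC7A7, an amino acid transporter gene, starts 59 bp from it on the other strand. For both regions the reads cannot be assigned to 1 of the 2 genes.

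These 4 calls depended on the measure, on the peak threshold and on single libraries. Ranked by −log10 p in place of fold enrichment, the shifts were 0.73 to 1.43 with adjusted p from 0.116 to 0.256, and with the pileup scaled to depth and centred on each library's median they were 0.19 to 0.58 with adjusted p from 0.139 to 0.606. By both measures 0 members rose. Among peaks with a −log10 p of at least 10, the regions of MRPL28, MRPL38 and MRPL10 were not in all 4 lists and could not be compared. MRPL52 rose by 1.98 there (limma adjusted p = 0.00326), 1 of 6 members that did among 54 tested, beside 6.36% of all regions. Without DMSO replicate 1 none of the 4 passed (adjusted p 0.0633 to 0.278), and without DMSO replicate 2 only MRPL10 did (adjusted p = 0.0481). Without I-BET151 replicate 2, MRPL52 did not pass (adjusted p = 0.0683). In each of these settings the shifts that could be computed stayed above 0.

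The ranks of the conditions did not overlap in 18 members upwards and 14 downwards (28.6% and 22.2% of 63), beside 25.3% and 31.4% of all start regions. Fold enrichment itself was higher in each I-BET151 library than in either DMSO library for 62 of 63 members, and this held for 97.4% of all start regions as well. The lowest shifts, named after their values were seen, were those of MRPL13 at −1.22 ± 0.38 (SE; limma adjusted p = 0.0661) and of MRPS18B at −1.17 ± 0.38 (SE; limma adjusted p = 0.0806). MRPL13 starts 2 bp from MTBP, and its fold enrichment was 7.36 and 6.64 with DMSO and 7.75 and 9.08 with I-BET151. Its percentile among shared regions was 84.5 and 83.2 and then 43.0 and 38.4, without overlap between the conditions. Both members passed the threshold among peaks with a −log10 p of at least 10 (MRPL13 −1.38, adjusted p = 0.0271, and MRPS18B −1.31, adjusted p = 0.0366) and with equal numbers of peaks (−1.42, adjusted p = 0.0288, and −1.33, adjusted p = 0.04), where 4.5% and 3.92% of all regions fell.

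By place in the ribosome, rank shifts at the tunnel exit and in the central protuberance spread over both signs. The members in this paragraph other than MRPL10 and MRPL38 were chosen for their place with values known. The places are not listed in full. At the stalk, MRPL10 had the rank shift of 2.0 and MRPL11, its neighbour at the stalk base, 0.80 ± 0.39 (SE; limma adjusted p = 0.22), while MRPL12 could not be ranked. The MRPL11 value is for the start of the gene record, 27890 bp from that of the canonical transcript. PELI3 starts 411 bp from this record start on the other strand. At the tunnel exit MRPL24 had 1.16, MRPL17 −0.41 and MRPL47 −0.60. In the central protuberance MRPL38 had 2.05, MRPL40 0.44, MRPL48 0.03, MRPL46 −0.11 and MRPL18 −0.93. MRPL18 starts 109 bp from TCP1 on the other strand. Apart from MRPL10 and MRPL38 none of these passed the threshold. In the small subunit, MRPS12 of the decoding centre had 0.99, in a region shared with the start of the seryl-tRNA synthetase gene SARS2, and MRPS11 had the same −0.11 as MRPL46, with which it shares its region. MRPL58, which frees stalled ribosomes, had −0.09, and MRPS36, whose protein is not part of the ribosome, −0.18.

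Shifts were higher among the members that were low with DMSO. The lowest was MRPL14, chosen here after its values were seen, with fold enrichments of 2.94 and 2.63 with DMSO and 8.20 and 5.28 with I-BET151 and a rank shift of 1.36 ± 0.48 (SE; limma adjusted p = 0.0994). Of the 17 members with a mean percentile under 50 among shared regions with DMSO, 15 had a shift above 0 and the median was 0.77. Of the 46 members at 50 or more, 22 had one and the median was −0.07. The same was seen over all start regions, where 66.2% of 3326 low regions and 34.5% of 5399 high ones had a shift above 0, with medians of 0.30 and −0.24. Because the same DMSO values enter both the level and the shift, the percentile in DMSO replicate 1 was also set against the change from DMSO replicate 2 to I-BET151, and the Spearman correlation was −0.34 across the 63 members and −0.31 across all start regions. Across the 63 members the Spearman correlation of fold enrichment was 0.88 between the DMSO libraries and 0.75 between the I-BET151 libraries, and 0.50 to 0.56 between libraries of different conditions. Over all start regions it was 0.91, 0.86 and 0.69 to 0.72. Where the DMSO libraries agree better with each other than with the I-BET151 libraries, as here, a negative correlation of level and change follows. The values of −0.34 and −0.31 therefore do not remove the dependence between level and shift. These correlations are descriptive, since the regions of 1 library share its depth and background.

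**Figure D4:**
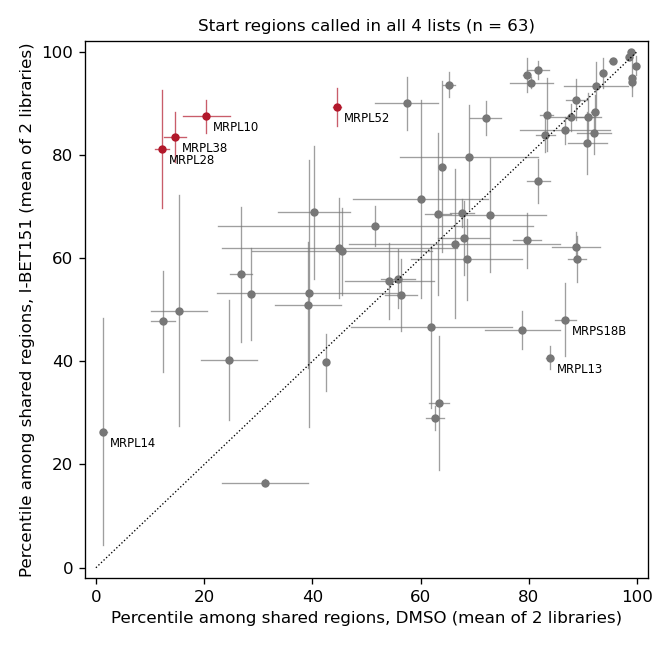
Percentile among the regions called in all 4 lists, mean of 2 libraries with DMSO (x axis) and with I-BET151 (y axis), for 63 member start regions, with lines to the 2 libraries of each condition and a dotted line of equality. MRPL28, MRPL38, MRPL10 and MRPL52 (red) lie under 50 with DMSO and above 80 with I-BET151.

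Among regions called in all 4 lists, the median percentile of the large subunit was lower than that of the small subunit by 16.7 and 6.59 points in the DMSO replicates. With I-BET151 the difference, large minus small, was −16.4 in replicate 1 and 0.96 in replicate 2, so that the change in this difference was within the spread of the libraries (3.93 points, exact permutation p = 0.67). Members with a bacterial counterpart lay above the mitochondria-specific ones in each library, by 3.17 and 9.36 points with DMSO and by 13.0 and 11.1 points with I-BET151 (change 5.81 points, exact permutation p = 0.33). By rank shift, 2 of 39 regions of the first kind and 2 of 24 of the second rose. By motif, the median rank shift was 0.28 for the 23 tested members with ETS letters and 0.08 for the 34 without, and it was 0.00 for the 13 with YY1 letters and 0.20 for the 45 without, where the region shared by MRPS11 and MRPL46 counts on both sides.

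Head-to-head promoters were common in the family. A protein-coding gene started on the other strand within 1000 bp of 27 members (34.6%), against 13.4% of all protein-coding genes, and the start region of such a pair cannot be assigned to 1 gene. Some partners also serve mitochondria, among them SARS2 (with MRPS12), TWNK (with MRPL43), and NDUFS6 and NDUFB5 of complex I (with MRPL36 and MRPL47). MRPL49 is paired with FAU, a gene of the cytosolic ribosome. Among regions called in all 4 lists, the median percentile of the head-to-head members minus that of the other members was 5.55 and −4.22 points with DMSO and −16.0 and −7.45 with I-BET151, a change of −12.4 points (exact permutation p = 0.33). The median rank shifts were 0.15 over 21 head-to-head regions and 0.09 over 42 others, and 2 of each rose.

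Other genes of mitochondrial translation were examined in the same fit. Of 71 such genes, 66 and 65 were called with DMSO and 69 and 70 with I-BET151. Over all protein-coding genes the shares called were 65.0% and 57.4% with DMSO and 68.9% and 73.6% with I-BET151. A start region in all 4 lists was held by 65 of the 71, of which 3 rose (4.62%) and 1 fell. Among all start regions of protein-coding genes 2.88% rose and 0.963% fell. VARS2 and TARS2, the valyl- and threonyl-tRNA synthetases of mitochondria, rose by 1.9 ± 0.38 and 1.58 ± 0.38 (SE; limma adjusted p = 0.0154 and 0.0284). MTERF4, which takes part in the assembly of the large subunit, rose by 1.60 ± 0.38 (SE; limma adjusted p = 0.0278). CARS2, the cysteinyl-tRNA synthetase, was lower by rank, with a shift of −1.42 ± 0.39 (SE; limma adjusted p = 0.0472). The start regions of DAP3 and CHCHD1, small-subunit proteins with other symbols, and of MRM2, a ribosomal RNA methyltransferase, were gained. These were 3 of 70 genes with a region, beside 10.7% of the protein-coding genes with a region. The 12 translation factors were called in every library and none passed the threshold. Among 8 nuclear regulators of mitochondrial genes, 6 had a start region in all 4 lists and 0 passed, with a median rank shift of −0.76. Motifs of GABPA, YY1 and NRF1 were counted in the member promoters. The shift was −0.91 ± 0.38 for GABPA (SE, limma adjusted p = 0.15) and −0.74 ± 0.38 for YY1 (SE, limma adjusted p = 0.242). NRF1 was not called in DMSO replicate 2 and could not be ranked. Its fold enrichment was 3.15 in DMSO replicate 1 and 10.3 and 10.8 with I-BET151. These other genes were not examined under the alternatives. The median rank shift over the 65 regions was 0.05, against 0.14 for the mitochondrial ribosomal protein genes.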

How the data were processed

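Peak lists of 4 ATAC-seq libraries were used. Per the labels and the methods, the authors aligned reads to hg38 with Bowtie2 (2.2.5), dropped duplicate and mitochondrial reads and ran MACS2 (2.1.2) on each library separately, without a control. The deposited lists give a display score (not used), a ratio (fold enrichment over the local background at the peak summit), −log10 p-value and −log10 q-value, all by the authors. The lists reach a q-value of 0.05, whereas the methods state a p-value of 1e-05, and the minimum peak length was 200 bp in the replicate 1 lists, 233 bp in DMSO replicate 2 and 256 bp in I-BET151 replicate 2.

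Peaks were merged over the 4 lists at 1 bp of overlap, and 25627 of 164301 regions were called in all 4. Gene starts came from GENCODE release 44 (hg38), with a window of 3 kb, and promoter sequences from RefSeq (GRCh38.p14). Pileups in whole reads were solved from fold and p-value, within 0.001 on the −log10 scale, and came back for 100% of peaks. Read numbers were derived from the genome-wide background, with the shortest peak taken as the read extension, and would scale with another genome size than 2700000000 bases. With the extension of 200 bp that the methods state, the replicate 2 libraries would have 42.6 M (DMSO) and 20.5 M reads (I-BET151). Rank shifts were fitted with limma 3.58.1 (R 4.3.3) on normal scores of ranks, with Benjamini-Hochberg adjustment over all shared regions and a threshold of 0.05. Other values were computed in Python 3.11.15 with numpy 2.4.6, scipy 1.17.1 and pandas 2.3.3, and single values per library were compared by two-sided exact permutation tests. The scripts were tested on simulated data.

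Members and gene lists were chosen with earlier results of these data known. The members named were those past the threshold, those with a start region missing from a list or a gained or lost region, the 5 highest, the 5 lowest and the 1 nearest to the median by mean percentile. Alternatives were other peak thresholds, equal numbers of peaks, 50% overlap, canonical transcript starts, a window of 1 kb, other measures, another choice of start region, the replicate number as a block and leaving out each library.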

Additional observations from a re-analysis of the deposited data

How the results depend on the processing

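With 2 libraries per condition, exact tests of single values cannot go below p = 0.33 (0.67 with 1 library left out). List length and depth differed between the conditions, and their part in the calls was not tested. The rise in members called and in their median percentile kept its direction in the alternatives that were run for it (other measures and another choice of start region for the median only, blocks for neither): leaving out a library gave a difference of 4.5 to 7.5 members and of 4.58 (without DMSO replicate 2) to 13.3 percentile points. The median difference was 1.18 points with equal numbers of peaks (exact permutation p = 1.0) and 28.5 points at a −log10 p of at least 10.

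Gained regions numbered 11 at a −log10 p of at least 10, and 7 to 10 with a library left out, the 10 coming without DMSO replicate 1. Lost regions numbered 1 with equal numbers of peaks and 0 to 5 with a library left out, the 5 coming without DMSO replicate 2 and 1 without I-BET151 replicate 2. The shares of all regions gained and lost are not given for these settings. Members moving up in rank numbered 6 at a −log10 p of at least 10, where 3 of the 4 members called could not be compared, 5 with equal numbers of peaks, 0 by −log10 p, 0 by centred scaled pileup and 0 to 6 with a library left out (0 without DMSO replicate 1, 1 without DMSO replicate 2). Members moving down numbered 2 at a −log10 p of at least 10 and 2 with equal numbers of peaks (MRPL13 and MRPS18B in both, beside 4.5% and 3.92% of all regions), 1 by centred scaled pileup (MRPL20) and 0 to 0 with a library left out. Over all shared regions 875 rose and 503 fell. By −log10 p it was 8 and 27, and by centred scaled pileup 174 and 1188. The share of all regions that rose was 6.36% at a −log10 p of at least 10 and 5.1% with equal numbers of peaks. The cause was not tested.

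Reversed shifts were those of MRPS9 (0.04 by −log10 p and 0.26 by centred scaled pileup), MRPL34 (−0.19 by centred scaled pileup and −0.45 without DMSO replicate 1), MRPS30 (0.20 by centred scaled pileup), MRPL50 (−0.02 without DMSO replicate 1) and MRPL42 (−0.21 without I-BET151 replicate 2), none of which had passed the threshold. With each library left out in turn, the shift lay between −0.45 and 1.10 for MRPL34, between −0.02 and 0.30 for MRPL50 and between −0.21 and 1.04 for MRPL42.

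The replicate differences of the conditions correlated at −0.14 across shared regions, which cannot show whether the replicate numbers pair the libraries. With the replicate number as a block 4 members rose and 0 fell, and 985 and 652 of all regions. Crossing the numbers, chosen after seeing the data, gave 8 and 2 members and 1985 and 1567 regions.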
